A study of Mus musculus with 14 samples.

Results

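Retnla, Chil3, Arg1, Il4ra, Mrc1, Mgl2, Cd163 and Folr2 are mouse genes used to mark alternatively activated and tissue-resident macrophages. They were chosen by name, ignoring case, and all 8 were among the 18481 genes of the deposited expression table. The table covers 14 bulk tumours, so RNA of melanoma, immune and stromal cells was measured together. The tumours grew from SMM102, a mouse melanoma line that stands for a single line here, placed under the skin at 2 sites in each mouse; the hosts were C57BL/6J females aged 6 to 8 weeks. Dosing began at a volume of 150 to 300 mm3. Treated mice received PLX4032, an inhibitor of the BRAF kinase also known as vemurafenib, into the peritoneum at 50 mg/kg on 5 days of each week. From them 2 tumours each of days 3, 6 and 18 and 4 tumours of day 27 were analysed. The 4 control tumours, 2 of day 3 and 2 of day 6, are called vehicle-treated in the series description but untreated in the sample labels. No control is later than day 6, so the effects of drug and of time cannot be told apart on days 18 and 27. The 4 tumours of day 27 are the left and right tumours of 2 mice, and the data columns do not say which tumour came from which mouse. They were treated as separate samples, which makes p-values that rest on them too small. Whether different mice gave the 2 day 18 tumours is not stated in the labels. An animal number is used both for a control of day 6 and for a day 3 tumour under PLX4032. Tumour numbers below only name the samples and pair nothing.

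Interleukin-4 and interleukin-13 bind receptors that contain the interleukin-4 receptor alpha chain, encoded by Il4ra, and signal through the transcription factor STAT6. In mouse macrophages this programme induces the secreted proteins of Retnla (RELM alpha, also called FIZZ1) and Chil3 (YM1), the arginine-cleaving enzyme arginase 1 of Arg1, and the lectin receptors of Mrc1 (CD206) and Mgl2 (CD301b). Cd163, a scavenger receptor for haemoglobin bound to haptoglobin, and Folr2, a folate receptor, mark resident macrophages of many tissues and are not limited to this programme. None of these genes is exclusive to macrophages: dendritic cells, monocytes or granulocytes can also express several of them.

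The levels of most of the 8 genes were highest on day 3 of PLX4032, lower on day 6 and low on day 27. From day 6 to day 18 the means of Retnla, Folr2, Cd163, Mgl2, Mrc1 and Il4ra rose. Of these rises that of Retnla alone was called, and Mrc1 on day 18 overlapped the controls. On day 3, 7 of the 8 genes were called higher than in controls, against 24.9% of all genes. The rise of Mgl2 was not called. On day 18 Retnla, Folr2 and Cd163 were called higher, against 5.42% of all genes. On day 27 Retnla was back within the range of the control tumours, while Mgl2 was lower than in controls. General macrophage genes also rose on day 3, and on day 18 genes of tissue-resident macrophages and of fat cells were raised in the same tumours.

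The promoters of Retnla and Chil3 are shown because these secreted proteins are textbook targets of STAT6. The Retnla stretch is chr16:48842359-48842608, plus strand, and the Chil3 stretch is chr3:106167565-106167814, minus strand, both from RefSeq on GRCm38.p6. Each gives the 250 bases before the annotated start, 5′ to 3′, and capitals mark motif matches. The Retnla start in GENCODE lies inside the stretch shown.
Retnla: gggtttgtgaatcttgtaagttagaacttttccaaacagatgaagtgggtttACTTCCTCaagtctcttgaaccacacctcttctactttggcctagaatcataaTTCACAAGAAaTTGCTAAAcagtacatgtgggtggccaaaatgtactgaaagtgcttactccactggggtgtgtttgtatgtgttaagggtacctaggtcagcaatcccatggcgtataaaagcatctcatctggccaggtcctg
Chil3: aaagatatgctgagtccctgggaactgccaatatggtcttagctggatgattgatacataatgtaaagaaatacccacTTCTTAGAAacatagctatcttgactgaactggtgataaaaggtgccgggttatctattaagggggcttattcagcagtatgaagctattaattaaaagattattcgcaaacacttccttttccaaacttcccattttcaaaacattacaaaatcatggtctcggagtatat
The 4 patterns below were searched on both strands in windows that also held the 50 bases after the start. In Retnla the STAT6 pattern, TTC and GAA with 4 bases between them, was matched by TTCACAAGAA, which begins at position -145 from the start. The C/EBP pattern TTGCNNAA was matched by TTGCTAAA, which follows it after a single base without overlap. The PU.1 pattern GAGGAAGT was matched on the opposite strand, where it reads ACTTCCTC on the printed strand. In Chil3 the shorter STAT pattern TTCNNNGAA was matched by TTCTTAGAA, which begins at position -172. Among all 32851 mouse promoter windows of this length, 6.95% held the STAT6 pattern, 8.3% the STAT pattern, 3.2% the PU.1 pattern and 10.8% the C/EBP pattern. The windows found for Mrc1, Mgl2, Cd163, Folr2 and Il4ra held none of the 4 patterns. A match describes letters only, and binding was not measured.

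The authors' values are a signal per gene that their table calls TPM, a length-corrected share of all transcripts, but the columns sum to different totals between 879385 and 1084401. It is called the deposited value here and the depth of each tumour is unknown. Changes are differences of log2(value + 1), which understate the change of genes near 0, and each is given with its standard error (SE). They were tested with limma over 15841 genes with Benjamini-Hochberg adjustment, and a gene is called when the adjusted p is under 0.05. Cd68, Csf1r and the other genes of a 15-gene pan-macrophage list were all measured, and their summed value ran from 1304 to 3824 in controls, from 13261 to 19964 on day 3, from 4774 to 7947 on day 6, from 3559 to 5945 on day 18 and from 1635 to 3049 on day 27. Control day 6 tumour 2 had the lowest sum of all tumours and the lowest control value of each of the 8 genes. In bulk tumours a change in the number of cells of a type and a change in RNA per cell cannot be told apart.

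**Figure D1:**
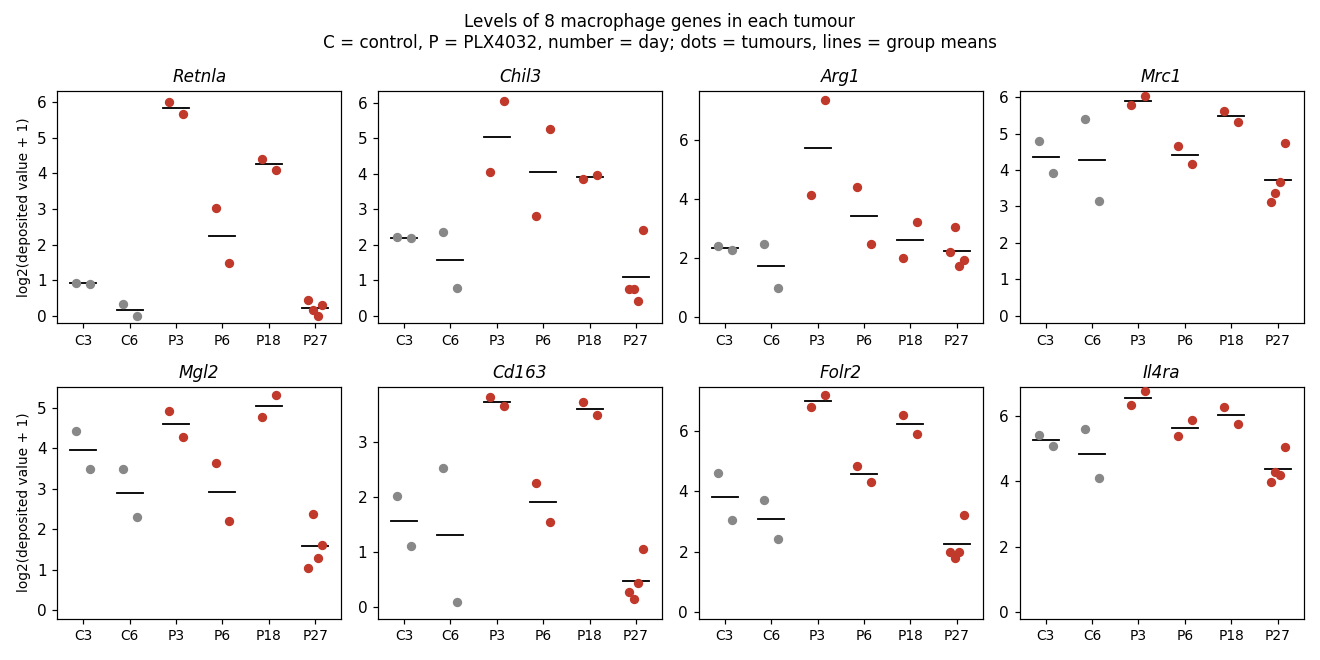
Deposited values of the 8 genes on the log2(value + 1) scale in each of the 14 tumours, by group: grey dots are control tumours, red dots are PLX4032 tumours and black lines are group means. The day 3 tumours stand above every control tumour for all genes except Mgl2, and the day 27 tumours overlap the controls for all 8 genes.

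Retnla (chr16:48842551-48844461, plus strand, GENCODE on GRCm38) had the largest change of the 8 genes on day 3. Its deposited value was 0.901 and 0.847 in the control tumours of day 3 and 0.247 and 0 in those of day 6. It was 63.6 and 50.1 on day 3 of PLX4032 and 7.12 and 1.78 on day 6. On day 18 it was 20.2 and 16.1, and on day 27 it was 0.351, 0.116, 0 and 0.227. All tumours of days 3, 6 and 18 were thus above all 4 controls, and the 3 groups did not overlap each other, while day 27 lay within the control range. On the log2(value + 1) scale Retnla rose by 5.31 on day 3 (SE 0.33, limma adjusted p = 5.61e-06) and by 3.72 on day 18 (SE 0.33, adjusted p = 9.95e-05). Both calls held in all 28 alternative settings. The rise of 1.72 on day 6 (SE 0.33, adjusted p = 0.0337) was lost on comparing with controls of day 6 alone (adjusted p = 0.0607) and on leaving out any of several tumours, such as control day 3 tumour 2 (adjusted p = 0.101).

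Chil3 (chr3:106147554-106167564, minus strand), the chitinase-like protein YM1, was also higher in every tumour of days 3, 6 and 18 than in controls. Its controls were 3.63, 3.52, 4.13 and 0.704. The PLX4032 values were 15.4 and 65.3 on day 3, 6.08 and 37.3 on day 6, and 13.5 and 14.8 on day 18. On day 27 they were 0.671, 0.7, 0.327 and 4.29. The tumours of days 3 and 6 differed several-fold within a group, so that the rise of 3.16 on day 3 (SE 0.78, limma adjusted p = 0.00744) was called but those of 2.16 on day 6 (adjusted p = 0.129) and 2.04 on day 18 (adjusted p = 0.124) were not. Without day 3 tumour 2 the change on day 3 was 2.16 and was not called (adjusted p = 0.113). Of the 31-base stretches of its transcripts, 41.5% occur in other genes, and 28.9% of all its stretches occur in Chil4, which is not listed in the table, so reads could have been assigned between these copies.

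Arg1 (chr10:24915221-24927484, minus strand), which competes with nitric oxide synthase for arginine, differed widely between the tumours of a group. The control values were 4.29, 3.79, 4.51 and 0.983. On day 3 the values were 16.6 and 161, and on day 6 they were 20.1 and 4.51. Every later tumour was between 2.29 and 8.38, which overlaps the controls. The day 3 rise was 3.71 (SE 0.84, limma adjusted p = 0.00451). Without day 3 tumour 2, which had the value of 161, it was 2.11 and was not called (adjusted p = 0.0742). Unlike Retnla, Arg1 was not called on day 18, with a change of 0.58 and a 95% interval from -1.26 to 2.43.

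Il4ra (chr7:125552120-125579474, plus strand), the receptor chain itself, was well above 0 in every tumour. It ran from 16.1 to 47 in the 4 controls, was 79.4 and 107 on day 3, 40.3 and 57.1 on day 6, 76.1 and 52.9 on day 18, and ran from 14.6 to 31.8 on day 27. The day 3 and day 18 tumours were above all controls. The day 3 rise was 1.49 (SE 0.39, limma adjusted p = 0.0101), and was not called without day 3 tumour 2 (adjusted p = 0.0953). The day 18 change was 0.96 (adjusted p = 0.141). An antisense gene overlaps Il4ra, and without knowing whether strand was used in counting their reads cannot be told apart.

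Among the lectin and scavenger receptors, Cd163 (chr6:124304656-124330527, plus strand) was nearly as high on day 18 as on day 3. Its controls were 3.04, 1.16, 4.75 and 0.0683. The values were 13 and 11.5 on day 3, 3.79 and 1.91 on day 6, 12.2 and 10.1 on day 18, and 0.208, 0.11, 0.36 and 1.07 on day 27. Days 3 and 18 stood above all controls and days 6 and 27 overlapped them. Cd163 rose by 2.29 on day 3 (SE 0.55, limma adjusted p = 0.00618) and by 2.16 on day 18 (SE 0.55, adjusted p = 0.0381). The day 18 call held in 7 of the 14 fits that each left out a tumour, with the adjusted p reaching 0.232 without day 18 tumour 1.

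Mgl2 (chr11:70130329-70137550, plus strand), which encodes a galactose-binding lectin of macrophages and dermal dendritic cells, was the only gene of the 8 with its highest mean on day 18. The controls were 20.5, 10.1, 10.2 and 3.92. The values were 29.3 and 18.4 on day 3, 11.5 and 3.59 on day 6, and 26.3 and 38.6 on day 18. On day 27 they were 1.06, 4.23, 1.46 and 2.05, and only the 4.23 was inside the control range. The changes of 1.18 on day 3 (adjusted p = 0.0794) and 1.61 on day 18 (adjusted p = 0.0738) were not called. Mgl2 fell by 1.84 on day 27 (SE 0.41, limma adjusted p = 0.0258), a call that held in 9 of 14 fits without a tumour. It was lost with controls of day 6 alone (adjusted p = 0.257) and with the day 27 tumours averaged in pairs (adjusted p = 0.117 at the lowest of 3 pairings). Mgl2 shares 19.3% of its 31-base stretches with its neighbour Clec10a, so their values are not fully separate.

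Mrc1 (chr2:14229392-14332057, plus strand), the mannose receptor, was 26.8, 14.2, 41.6 and 7.93 in controls. It was 54.2 and 64.1 on day 3, 24.3 and 17 on day 6, 48.3 and 39.1 on day 18 and between 7.66 and 25.6 on day 27. The day 3 tumours alone lay above all controls. The rise of 1.58 (SE 0.57, limma adjusted p = 0.0427) was the weakest call of day 3. It held in 4 of the 14 fits that each left out a tumour.

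Folr2 (chr7:101839988-101857194, minus strand), a folate-binding surface receptor, had the pattern closest to Retnla among the 8 genes. Its controls were 23.1, 7.38, 12.3 and 4.43. The values were 109 and 145 on day 3, 27.8 and 18.7 on day 6, and 91.9 and 59.3 on day 18. On day 27 they were 3.01, 2.44, 3 and 8.22, of which 3 lay below every control. The tumours of days 3 and 18 were above all controls and did not overlap each other. Folr2 rose by 3.53 on day 3 (SE 0.51, limma adjusted p = 0.000486), which held in all 28 alternative settings. It rose by 2.77 on day 18 (SE 0.51, adjusted p = 0.0103), which was lost without day 18 tumour 1 (adjusted p = 0.116) or tumour 2 (adjusted p = 0.0511). An antisense gene and a pseudogene overlap Folr2 on the opposite strand.

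Taken by day, 7 of the 8 genes were higher on day 3, against 24.9% of all 15841 genes. The median change of the 8 genes was 2.73, against 0.02 over all genes. Leaving out day 3 tumour 2 reduced the 7 calls to 3. On day 6 Retnla was the call among the 8, against 4.49% of all genes higher, and the median change was 0.84 against 0.01 over all genes. On day 18, 3 of the 8 were higher, against 5.42% of all genes, and the median was 1.83 against 0.07. Without day 18 tumour 1 this count was 1, and without control day 6 tumour 1 it was 6. On day 27, 1 of the 8 was lower, against 3.09% of all genes, and the median was -0.74 against 0.01. Counting tumours that did not overlap the controls, 7 genes stood above on day 3 (31.2% of all genes), 3 on day 6 (16.2%) and 6 on day 18 (24.9%), while on day 27 all 8 overlapped the controls (7.33% of all genes stood above and 6.43% below). The genes were chosen with results of these data known, and these counts describe them.

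**Figure D2:**
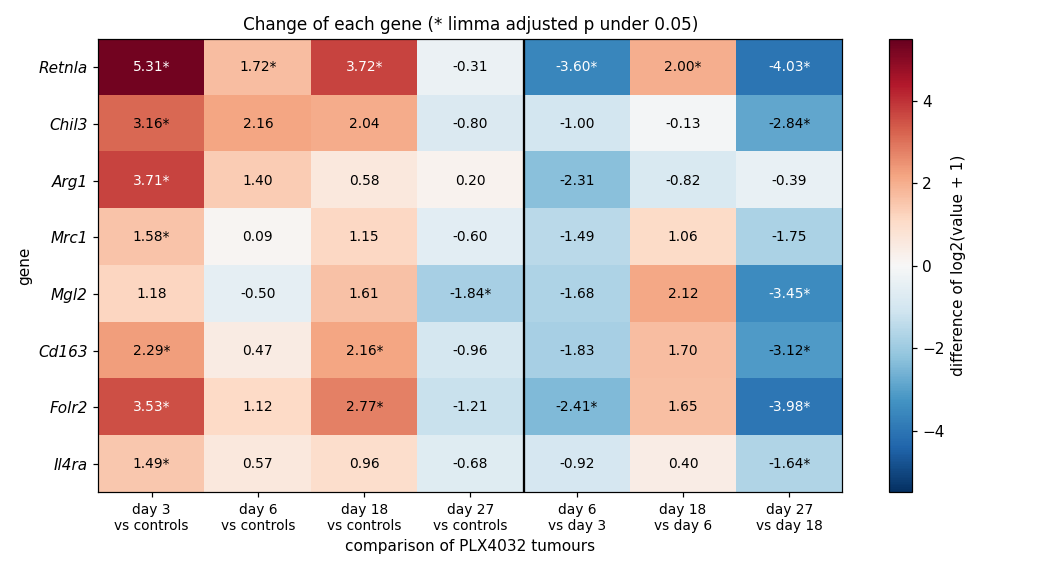
Difference of log2(value + 1) for each gene in 7 comparisons of PLX4032 tumours, with red for higher and blue for lower; an asterisk marks a limma adjusted p under 0.05. Retnla has the largest value in the day 3 column (5.31), and the right-hand column (day 27 against day 18) holds negative values in every row.

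The change over treated time was tested directly by comparing days 18 and 27 with days 3 and 6. Of the 8 genes 5 were lower late, against 19.4% of all genes: Retnla at a log2 change of -1.81 (SE 0.26, limma adjusted p = 0.000635), Chil3 at -2.05 (adjusted p = 0.02), Arg1 at -2.17 (adjusted p = 0.0206), Folr2 at -1.54 (adjusted p = 0.0103) and Il4ra at -0.89 (adjusted p = 0.0366). The 5 calls became 2 without day 3 tumour 2 and 3 without day 6 tumour 2 or either tumour of day 18. This average hides the course between days, which was examined by steps chosen after the values were seen.

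From day 3 to day 6 Retnla fell by 3.60 (SE 0.39, limma adjusted p = 0.000196) and Folr2 fell by 2.41 (adjusted p = 0.0187), against 7.34% of all genes lower. The call of Folr2 was lost without either tumour of day 6 or day 3 tumour 2 (adjusted p = 0.118 at the highest). From day 6 to day 18 Retnla rose again by 2.00 (SE 0.39, adjusted p = 0.0289), against 1.36% of all genes higher. This call was lost without day 18 tumour 1 (adjusted p = 0.166) and with the day 27 tumours averaged in pairs (adjusted p = 0.0676 at the lowest of 3 pairings). The corresponding values were 2.12 for Mgl2, 1.70 for Cd163, 1.65 for Folr2 and 1.06 for Mrc1, none of which was called. From day 18 to day 27, 6 of the 8 genes were lower, against 6.86% of all genes. Folr2 fell by 3.98 (SE 0.51, adjusted p = 0.000878) and Retnla fell by 4.03 (SE 0.33, adjusted p = 4.16e-05). The values of the other called genes were -3.45 for Mgl2, -3.12 for Cd163, -2.84 for Chil3 and -1.64 for Il4ra. Mrc1 gave -1.75 (adjusted p = 0.0776) and Arg1 -0.39 (adjusted p = 0.795), and without day 18 tumour 1 the 6 calls became 3. With the day 27 tumours averaged in pairs they became 4 in each of 3 pairings, as Chil3 (adjusted p from 0.115 to 0.135) and Il4ra (0.0793 to 0.0988) were not called. The day 18 and day 27 tumours did not overlap for the 6 genes or for Mrc1. The share of all genes without overlap between these days was not computed, so how common such a separation was is unknown.

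The 8 genes were then set against the general macrophage signal of the same tumour, by subtracting the mean log2 value of the 15 pan-macrophage genes. That mean was 7.06, 5.91, 7.16 and 5.57 in controls, 8.86 and 9.34 on day 3, 7.61 and 8.27 on day 6, 7.85 and 7.18 on day 18, and 6.06, 6.27, 6.48 and 7.01 on day 27. Of these 15 genes 14 were higher on day 3, against 24.9% of all genes, with a median change of 2.65, close to the median of 2.73 of the 8 genes. On day 18 their median change was 1.07 and the call among them was a fall of Mertk, a receptor for dying cells, by 0.63 (SE 0.17, limma adjusted p = 0.0479).

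Relative to this reference Retnla was above every control on days 3 and 18. Its log2 level minus the reference was -6.13, -5.03, -6.85 and -5.57 in controls, -2.85 and -3.67 on day 3, -4.59 and -6.79 on day 6, -3.45 and -3.08 on day 18, and between -6.71 and -5.62 on day 27. In control day 6 tumour 2 Retnla was 0, so its relative level of -5.57 is the reference with its sign reversed. Retnla was also near 0 in the other controls and on day 27, so there the relative level mostly follows the reference. The relative mean of Retnla was above that of the controls by 2.64 on day 3 and by 2.63 on day 18 (SE 0.57 for each). Day 6 overlapped the controls. The limma adjusted p was 6.37e-06 on day 3, against 0.189% of all genes higher, and 0.000622 on day 18, against 0.556% of all genes. The subtraction gives all genes a shared error, which makes these p-values too small. With each gene's own spread, an alternative added after seeing the data, the adjusted p was 0.00599 on day 3 and 0.191 on day 18. With a pseudocount of 5 neither was called: the change was 0.92 on day 3 (limma adjusted p = 0.0798) and 1.05 on day 18 (adjusted p = 0.123). On day 3 the SE of Retnla from its own spread was 0.68. That SE was smaller for Il4ra (0.20), Folr2 (0.33), Mrc1 (0.35) and Cd163 (0.40), while limma gave each about 0.57. The limma p-values of those genes on this scale need not be too small.

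Folr2 and Cd163 also lay above every control on day 18 on this scale. Folr2 was -1.32 and -1.27 relative to the reference on day 18, against -3.44 to -2.47 in controls, and Cd163 was -4.13 and -3.71 against -5.47 to -4.64. The relative changes of 1.68 for Folr2 (limma adjusted p = 0.0594) and 1.07 for Cd163 (adjusted p = 0.134) were not called. On day 3 Folr2 was -2.08 and -2.15, also above every control. Its relative change of 0.85 was not called by limma (adjusted p = 0.142). With each gene's own spread it was called (adjusted p = 0.0369), against 0.404% of all genes higher. Cd163 on day 3, at -5.05 and -5.70, was inside or below the control range.

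Il4ra and Mgl2 had lower levels relative to the reference on day 3 than in controls. Il4ra was -2.53 and -2.59 on day 3 against -1.64 to -0.83 in controls, a relative change of -1.18 (limma adjusted p = 0.0424), and Mgl2 had a relative change of -1.50 (adjusted p = 0.00948). A lower relative level was the rule, since 91.5% of all genes were called lower on this scale. The limma call of Il4ra held in 5 of 14 fits without a tumour, with the adjusted p reaching 0.154, and that of Mgl2 in 13, with the adjusted p at 0.239 without day 3 tumour 2. With each gene's own spread Il4ra kept its call (adjusted p = 0.00265) and Mgl2 did not (adjusted p = 0.0661). By that rule 92% of all genes were lower. Mrc1 was -3.07 and -3.32 on day 3 against -2.41 to -1.75 in controls, a relative change of -1.09. It was not called by limma (adjusted p = 0.0603) but was called with its own spread (adjusted p = 0.0157). Of 18 alternative settings, 4 called it. On day 6 the relative calls were Mrc1 (-1.42) and Mgl2 (-2.02), both lower as were 82.2% of all genes, and for late against early tumours they were Mrc1 (0.97) and Mgl2 (1.08), both higher as were 87.5% of all genes. With each gene's own spread the late against early calls were Mrc1 (adjusted p = 0.0127), Cd163 (0.0432) and Il4ra (0.0112), and Mgl2 was not called (adjusted p = 0.0817). These calls were higher, as were 85.4% of all genes by that rule. On day 27 Mgl2 was lower relative to the reference, at -1.87 (adjusted p = 0.00924), against 0.669% of all genes, a call lost with its own spread (adjusted p = 0.776). For Chil3 and Arg1 the relative values of days 3 and 6 overlapped those of the controls or straddled them, with changes on day 3 of 0.49 (adjusted p = 0.401) and 1.04 (adjusted p = 0.0729).

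**Figure D3:**
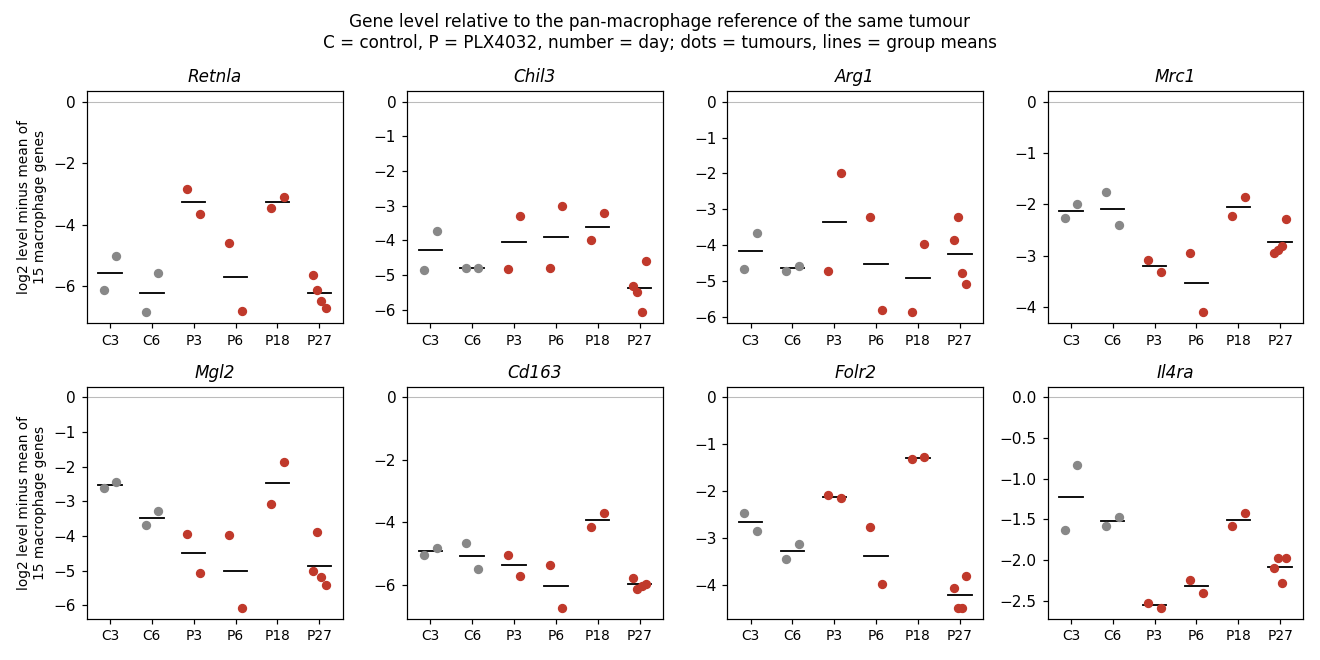
Log2 level of each gene minus the mean of 15 pan-macrophage genes in the same tumour, with grey dots for control and red dots for PLX4032 tumours and lines for group means. Retnla and Folr2 on days 3 and 18 and Cd163 on day 18 lie above every control tumour. Il4ra, Mrc1 and Mgl2 on day 3 lie below every control tumour.

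Receptor chain and kinase genes upstream of STAT6, and Stat6 itself, were among the genes higher on day 3. Of 9 measured genes of the interleukin-4 and interleukin-13 signalling group 6 were higher, against 24.9% of all genes, with a median change of 0.60. Il2rg, the common gamma chain, rose from between 13.7 and 34.7 in controls to 154 and 258, a change of 2.94 (SE 0.42, limma adjusted p = 0.000476). Stat6 itself was 72.4, 80.4, 66.1 and 67.2 in controls and 102 and 123 on day 3, a rise of 0.64 (SE 0.10, adjusted p = 0.000851). The kinases Tyk2 and Jak3 rose by 0.99 (adjusted p = 0.000397) and 0.73 (adjusted p = 0.00494). The cytokine gene Il4 was 8.55 and 6.38 on day 3 against 4.30 to 5.80 in controls, a change of 0.49 that was not called (adjusted p = 0.0645), and Il13 is not listed in the table. On day 27 Stat6 was between 53.2 and 57.6, below every control, and fell by 0.36 (SE 0.09, adjusted p = 0.0317).

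Other genes that interleukin-4 or interleukin-13 induces in mouse macrophages rose on day 3 in 14 of 20 measured cases, against 24.9% of all genes, with a median change of 1.53. Pdcd1lg2, which encodes the checkpoint ligand PD-L2, was 11.3 and 17.2 against 0.347 to 1.47 in controls, a rise of 2.91 (SE 0.27, limma adjusted p = 3.55e-05). Clec7a, the beta-glucan receptor dectin-1, was 120 and 184 on day 3 against 7.17 to 27.7, a rise of 3.40 (SE 0.45, adjusted p = 0.000304). By day 18 both were inside or near the control range again, with Pdcd1lg2 at 1.45 and 1.38 and Clec7a at 21.7 and 23.3. Retnla was far above its control range at that time. The 5 genes of this list that were higher on day 18 (median 0.79, against 5.42% of all genes called higher) included Pparg, a lipid-sensing nuclear receptor, by 3.00 (adjusted p = 0.000506) and Egr2, a transcription factor, by 2.22 (adjusted p = 0.00473). Pparg is also an adipocyte gene.

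The genes of tissue-resident macrophages rose on days 3 and 18 as Retnla, Folr2 and Cd163 did. Of 20 measured genes 19 were higher on day 3 (median 1.97), 12 on day 18 (median 1.61) and 1 on day 6 (median 0.28). Over all genes the shares called higher were 24.9%, 5.42% and 4.49%. Timd4, a receptor for phosphatidylserine, was 3.75 and 2.96 on day 3 and 2.20 and 1.47 on day 18, against 0.0212 to 0.259 in controls. Its rises were 1.90 (SE 0.15, limma adjusted p = 1.52e-05) and 1.27 (SE 0.15, adjusted p = 0.000655). Lyve1, a hyaluronan receptor also of lymphatic vessels, was highest on day 18 at 19.6 and 19.0, against 6.57 and 8.59 on day 3 and 0.0467 to 4.31 in controls, a rise of 3.3 on day 18 (SE 0.48, adjusted p = 0.00268). Igf1, a growth factor made by such macrophages and by stromal cells, rose by 2.40 on day 18 (adjusted p = 0.00462). Marco, a scavenger receptor, differed from these: it was 23.3 and 146 on day 3, a rise of 5.28 (adjusted p = 0.000178), and 0.513 and 0.0654 on day 18.

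From day 18 to day 27, 14 of the 20 resident genes were lower, against 6.86% of all genes, with a median change of -2.14. The C-type lectin genes Cd209f and Cd209g fell by 4.66 (SE 0.55, limma adjusted p = 0.000508) and 3.59 (SE 0.43, adjusted p = 0.000561), and Timd4 fell by 1.42 (adjusted p = 0.000231). Of the pan-macrophage genes 1 of 15 fell in this step, and their median was -1.11. Against controls Pf4, a platelet and macrophage chemokine, fell by 1.47 on day 27 (adjusted p = 0.0243) and F13a1, a clotting factor subunit, fell by 1.5 (adjusted p = 0.0334), in the same comparison in which Mgl2 was lower.

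Genes of classical activation, the state induced by interferon gamma and microbial products, rose in the same day 3 tumours as the 8 genes: of 16 measured genes 12 were higher (median 2.42), against 24.9% of all genes. Tnf was 12.1 and 14.6 against 0.843 to 2.88 in controls and rose by 2.52 (SE 0.31, limma adjusted p = 0.00021). Nos2, the inducible nitric oxide synthase that shares its substrate with arginase, was 9.62 and 37.2 against 0.468 to 1.99 and rose by 3.31 (SE 0.47, adjusted p = 0.000433). On day 18, 2 of 16 were higher (median 0.55), against 5.42% of all genes: Il6, by 1.89 (adjusted p = 0.00025), and Il1b, by 2.54 (adjusted p = 0.0236). Tnf at 2.59 and 1.85 and Nos2 at 1.78 and 0.896 were then within their control ranges. Of 10 measured genes of arginine and polyamine metabolism, Arg1 not among them, 4 were higher and 5 lower on day 3. The shares over all genes were 24.9% and 20.8%. The summed value of the 10 was 434 to 563 on day 3 against 629 to 955 in controls. Among them Ass1, which makes the arginine precursor argininosuccinate, was the call of day 27 (3.58% of all genes were called higher). Ass1 rose by 1.35 (limma adjusted p = 0.0408) while Arg1 was at control level.

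**Figure D4:**
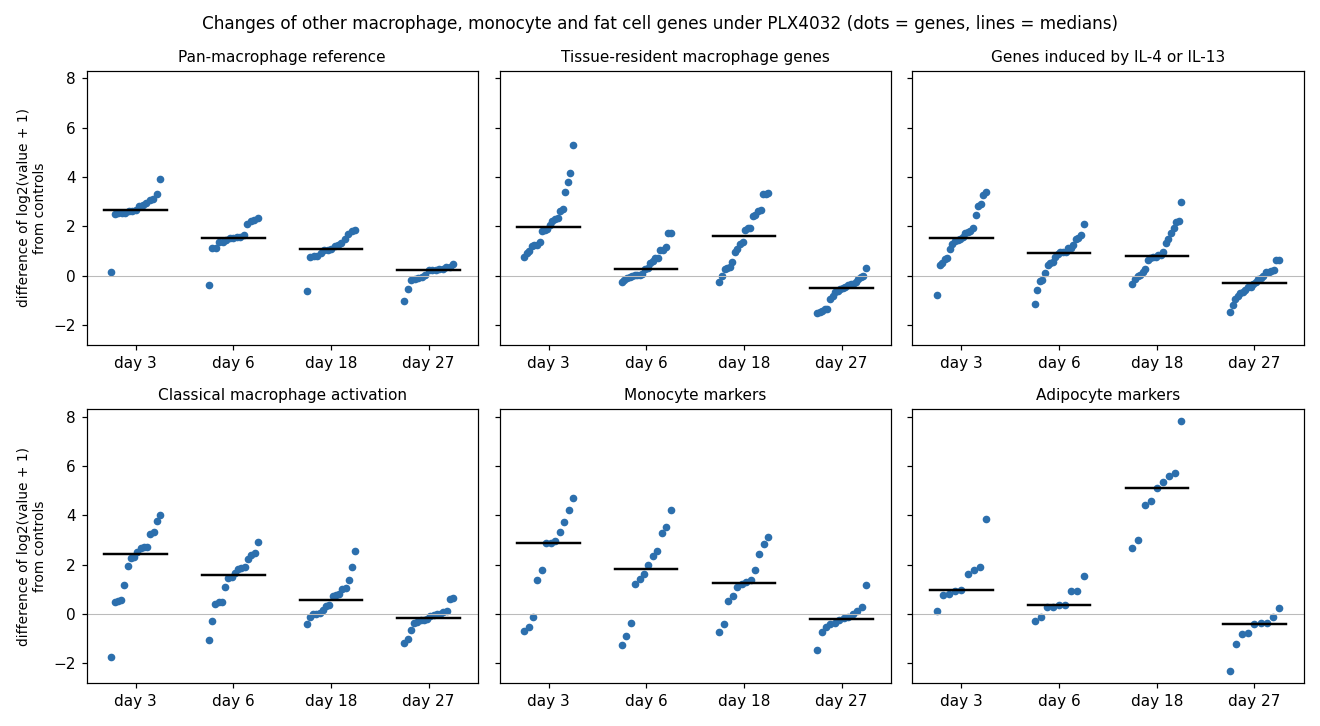
Difference of log2(value + 1) from controls on 4 days for every measured gene of 6 lists; each dot is a gene and each black line the list's median. The medians of the tissue-resident genes are 1.97, 0.28, 1.61 and -0.52 on days 3, 6, 18 and 27, those of the pan-macrophage genes are 2.65, 1.54, 1.07 and 0.21, and those of the adipocyte genes peak on day 18 at 5.08.

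Markers of other cells moved in the same tumours. On day 3, 24.9% of all genes were called higher. The calls were 8 higher and 2 lower of 12 monocyte genes, 10 higher of 10 dendritic cell genes and 10 of 10 T cell genes. Also higher were 6 of 9 neutrophil genes and 4 of 7 mast cell and basophil genes. The 7 were Kit, Fcer1a, Cma1, Cpa3, Ms4a2, Mcpt4 and Tpsb2. The eosinophil genes of the same list were not listed in the table or not tested. Summed monocyte values were 1110 to 2232 on day 3 against 294 to 391 in controls. On day 18 the genes of fat cells shifted: all 9 measured adipocyte genes rose, against 5.42% of all genes, with a median change of 5.08, and their summed value was 2636 and 2727 against 25.1 to 74.4 in controls, 54.6 to 57.0 on day 6 and 21.1 to 31.8 on day 27. Adipoq, the adipocyte hormone adiponectin, was 111 and 142 on day 18 against 0.306 to 3.70 in controls. Retn, which encodes resistin, the relative of the Retnla product made by mouse fat cells, was 69.0 and 155 on day 18 against 0.317 to 2.08 in controls, and rose by 5.89 (SE 0.40, limma adjusted p = 1.57e-05). Retn did not follow Retnla on day 3, when it was 2.67 and 0.705. The day 18 levels of Retnla, Folr2, Cd163 and the resident genes were thus measured in the tumours with the highest fat cell signal. The part of fat tissue in those levels was not tested. On day 27, 5 of 7 mast cell and basophil genes were lower, against 3.09% of all genes. Summed over all 9 measured genes of that list, the values were 9.9 to 47.4 against 142 to 631 in controls. The part of these cells in the changes of the 8 genes was not tested.

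Across the 14 tumours the 8 genes varied together to different degrees. Pearson's r of log2 values, given as a description over tumours that share groups, was 0.96 between Cd163 and Folr2, 0.95 between Cd163 and Mrc1 and 0.94 between Retnla and Folr2. Arg1 had lower values, from 0.46 with Mgl2 to 0.72 with Retnla. With the pan-macrophage mean, r ran from 0.54 for Mgl2 to 0.90 for Il4ra.

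Among about 10449 other genes with a mean value of at least 5, the closest to Retnla was Ear2, an eosinophil-associated ribonuclease gene, with r = 0.97 over 14 tumours. Its values were 32.9 and 12.3 on day 3, 3.91 and 2.47 on day 6, 16.9 and 13 on day 18, and at most 0.372 on day 27. Cd209g (r = 0.95) and Clec3b (r = 0.94) followed. The closest gene was Ccl6, a macrophage chemokine, for Cd163 (r = 0.98), Isyna1, an enzyme of inositol synthesis, for Folr2 (r = 0.98), and Tcn2, a vitamin B12 carrier, for Il4ra (r = 0.98). It was Srgn, the granule proteoglycan serglycin, for Chil3 (r = 0.97), Nxpe5 for Mrc1 (r = 0.94), Gpr137b for Arg1 (r = 0.94) and Cdo1, cysteine dioxygenase, for Mgl2 (r = 0.94). Cdo1 had its highest values on day 18, at 41.1 and 57.7, as Mgl2 did.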

How the data were processed

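RNA of 14 frozen tumours was sequenced. The authors deposited a signal per gene symbol that their table calls TPM; 5 of 14 columns sum to more than TPM columns can, so they were rescaled by a step that the sources do not give. Tests planned for TPM were kept. Kallisto, sleuth and the mm10 build are named in the submitters' processing notes, without versions. Symbols were matched ignoring case (17811 of 18481, 96.4%), and coordinates come from GENCODE M21. Columns name a group but no animal. No columns were identical, and log2 values of tumours of a group correlated at 0.971 to 0.992.

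Genes with a value of 1 or more in 2 or more tumours were kept (15841 genes, including all 8 described), on the log2(value + 1) scale. limma 3.58.1 in R 4.3.3 was fitted with a variance trend to 6 group means, 2-sided. Benjamini-Hochberg adjustment covered all genes kept, at a threshold of 0.05. Of 8 residual degrees of freedom 3 come from day 27. For each treated day the contrast was its mean minus the average of the 2 control groups. The fit was tested on simulated data, but no result of that test is given here. Replicates may share animals, so p-values reflect spread among these tumours, which may be partly technical. The genes and the 17 gene lists were chosen with earlier results of these data known. Named are the 8 genes, up to 4 genes of a list with the smallest p in a comparison, and the 3 genes most correlated with each of the 8; Il4, Adipoq and values of listed genes on days other than the comparison that named them were chosen after their values were seen. Alternatives were other pseudocounts, filters, scalings, controls, references and fits, and leaving out each tumour.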

Additional observations from a re-analysis of the deposited data

Results flagged for a closer look

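In the 4 tumours of day 27, Chil3 and Folr2 each had a tumour far from the others. For Chil3 the gap between tumour 4 and its nearest neighbour was 0.906 of the group's range, and for Folr2 it was 0.902, both past Dixon's 95% limit. It was tumour 4 each time, the tumour with the highest pan-macrophage mean of its group (7.01, against 6.06 to 6.48). The other 6 genes did not pass that limit. Chance alone passes it in about 5% of groups.

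Late and early PLX4032 tumours differed by the test of days 18 and 27 against days 3 and 6 for 5 of the 8 genes. All 5 were lower late, against 19.4% of all genes. The log2 differences were -1.81 for Retnla, -2.05 for Chil3, -2.17 for Arg1, -1.54 for Folr2 and -0.89 for Il4ra.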

How the results depend on the processing

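No paired analysis was possible because the groups share at most 1 animal number and the data columns carry none. Of the 8 genes' results on levels, no called value changed sign under any alternative, and rescaling by median of ratios or quantiles reversed no gene. Quantile normalisation moved the median of all genes on day 3 from 0.02 to -0.15 and the share of higher among all called genes from 54.4% to 38.9% on day 3, from 75.9% to 60.4% on day 6, from 68.4% to 44.9% on day 18 (56.5% by median of ratios), and from 31.7% to 59.1% for day 27 against day 18 (42.4% by median of ratios).

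Counts of called genes out of 8 moved as follows. Against controls, day 6 went from 1 to 0 with the compared groups alone, with controls of the same day, with controls of day 3 only (chosen after seeing the data) and in all 3 pairings of the day 27 tumours. Day 18 went from 3 to 1 with the compared groups alone or controls of day 3 only. Day 27 went from 1 to 0 with controls of day 6 and in the 3 pairings. The late against early count went from 5 to 3 in pairing 1. Between days, day 18 against day 6 went from 1 to 0 with a pseudocount of 0.1, with the compared groups alone and in the 3 pairings, and day 6 against day 3 went from 2 to 4 with a pseudocount of 5 or the compared groups alone. Relative to the pan-macrophage reference, day 18 went from 1 to 0 with a pseudocount of 5 or each gene's own spread. Day 27 went from 1 to 0 with either of these or a reference of Cd68, Csf1r and Adgre1. Day 6 went from 2 to 4 with each gene's own spread, where 67.3% of all genes were called lower. The causes were not tested.

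Leaving out a tumour at a time gave 3 to 8 calls on day 3, 0 to 2 on day 6, 1 to 6 on day 18, 0 to 3 on day 27 (3 without control day 6 tumour 2) and 2 to 6 for late against early. It gave 1 to 4 for day 6 against day 3, 0 to 2 for day 18 against day 6 and 3 to 7 for day 27 against day 18. Relative to the reference it gave 1 to 5, 0 to 3, 1 to 3 and 0 to 1 on the 4 days and 0 to 3 for late against early.

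Values that changed sign were not called. With controls of the same day or day 6, Mgl2 on day 6 was 0.030 and Retnla on day 27 was 0.063. With controls of day 3 only, Arg1 on day 27 was -0.11. Relative to the reference, a pseudocount of 0.1 gave 0.50 for Cd163 on day 3 and 0.13 for Arg1 on day 6. A pseudocount of 5 gave -0.30 for Chil3 on day 3, -0.71 for Retnla on day 6 and -0.043 for Mrc1 on day 18, and for late against early 0.10 for Chil3, 0.30 for Folr2 and 0.37 for Retnla. The reference of Cd68, Csf1r and Adgre1 gave -0.12 for Mrc1 on day 18, and for late against early 0.27 for Folr2 and 0.0024 for Retnla. Leaving out a tumour reversed Arg1 on day 18 (-0.032 to 1.2) and day 27 (-0.17 to 0.57), Cd163 (-0.14 to 1.07), Mgl2 (-1.23 to 0.22) and Mrc1 (-0.47 to 0.66) on day 6, Arg1 for day 18 against day 6 (-1.79 to 0.15) and day 27 against day 18 (-1.005 to 0.23), and Chil3 for day 18 against day 6 (-1.34 to 1.09) and day 6 against day 3 (-2.22 to 0.22). On the relative scale it reversed Arg1 on day 3 (-0.33 to 2.40), day 6 (-1.41 to 1.18), day 18 (-1.46 to 0.45), day 27 (-0.17 to 0.45) and late against early (-1.31 to 0.050), Chil3 on day 3 (-0.27 to 1.25) and day 6 (-0.24 to 1.54), Folr2 on day 6 (-1.01 to 0.20) and late against early (-0.31 to 0.29), Il4ra (-0.33 to 0.071), Mgl2 (-0.083 to 1.13) and Mrc1 (-0.13 to 0.25) on day 18, and Retnla on day 6 (-0.90 to 1.30) and late against early (-0.83 to 0.28).

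The main limits are groups of 2 tumours, controls that end on day 6, day 27 tumours that share mice, and an unknown depth, so that a gene listed at 0 or a change that was not called is not shown to be absent. Where a group of 2 was reduced to a lone tumour, that tumour was assumed to vary like the other groups.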
